A study of Mus musculus with 18 samples.

Results

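Type I interferons are cytokines made by infected and sentinel cells. They bind the receptor chains IFNAR1 and IFNAR2, whose kinases JAK1 and TYK2 phosphorylate STAT proteins, and these enter the nucleus with IRF9 as the complex ISGF3. ISGF3 binds the interferon-stimulated response element (ISRE) in the promoters of interferon-stimulated genes, whose products sense, block or degrade viral nucleic acid and, in CD8 T cells, form a tonic program that is present without infection. The genes described here were 41 such genes, taken from a list by symbol and matched through GENCODE M21 to Ensembl gene IDs. They made up 41 of the 56748 gene IDs measured, and all 41 passed the filter on low counts that left 13690 genes for testing.

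Gene expression was measured by RNA sequencing of poly-A selected RNA in sorted splenic CD8 T cells of mice labelled wild type (WT). The 18 libraries fell into 3 diet groups of 6. The ND group received a normal diet for 12 weeks, the HFD group a high fat diet for 12 weeks, and the SW (switched diet) group 6 weeks of high fat diet and then 6 weeks of normal diet. No treatment other than diet, and no strain or age, is given in the labels, and they do not say whether the libraries of a group came from separate mice, so p-values measure the spread between these samples, which may be technical in part.

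Total counts per library ran from 11947339 to 16398340, the highest in ND replicate 6. Levels are given as normalised counts scaled to library size (CPM). The markers of CD8 T cells (Cd8a, Cd8b1, Cd3d, Cd3e, Cd3g and Trac) were present at a summed 4579 to 5131 CPM in every library, and Cd4 reached at most 1.32 CPM. HFD replicate 4 stood apart on the first principal component of all genes tested (13.4% of the variance), at 55.0 against -8.83 to 6.31 for the other 17 libraries. On the second component (12.0%), replicates 1 and 2 of every diet lay at -5.58 or lower and replicates 3 to 6 at -4.59 or higher. What a replicate number marks is not stated, and results are therefore also given without HFD replicate 4 and within replicates 3 to 6. The summed markers of monocytes, macrophages and neutrophils were 66.4 to 169 CPM in ND, 77.1 to 119 in SW and 103 to 259 in HFD, those of conventional dendritic cells 56.8 to 131, 59.4 to 99.6 and 76.3 to 153, and those of B cells 489 to 548, 514 to 630.3 and 538 to 692 in the same order. Erythroid markers were 14.8 to 40.1 CPM in ND, 29.9 to 86.3 in SW and up to 337 in HFD, with a median of 84.0 there. Markers of plasmacytoid dendritic cells had a median of 185 CPM in ND, 202 in SW and 172 in HFD. Most of that sum was Ccr9 (mean of 125 CPM in ND, 129 in SW and 102 in HFD) and Pacsin1 (53.9, 56.1 and 60.6). Siglech of the same list was at 1.44, 1.59 and 2.49 CPM, so the sum and Siglech moved in opposite directions in HFD. Ighm, which encodes the IgM heavy chain of B cells, rose in HFD against ND. Of the markers matched, none of these was at 0 in every library. Their part in the results was not tested.

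Promoters of these genes are known for the ISRE, and stretches of 4 of them are shown here. Windows upstream of a RefSeq start site (GRCm38.p6) were matched for 31 of the 41 genes, and the 250 bases before each start were searched on both strands for the ISRE core GAAANNGAAA. A match was found in 10 of the 31 genes (32.3%), against 3.28% of the 9456 tested genes with a window and 3.46% of all 27025 genes with one. The 10 were Stat2, Oas1a, Oas3, Ifit1, Ifit3, Ifit3b, Isg15, Trim30a, Rsad2 and Bst2. The gamma-activated site (GAS, TTCNNNGAA) was matched in 5 of 31 (16.1%) against 7.25% of tested genes, in Eif2ak2, Oas1a, Ifit2, Bst2 and Isg20; in Bst2 the GAS match at -136 overlapped the ISRE match at -130, counted from the start site. The stretches below are shown because Ifit1 and Isg15 had the lowest fold changes in HFD, and because Ifit3 and Ifit3b are near copies of each other. Capitals mark ISRE matches. The Ifit stretches are on the plus strand and that of Isg15 on the minus strand, each written 5′ to 3′ in the direction of the gene.
Ifit1, chr19:34640689-34640870: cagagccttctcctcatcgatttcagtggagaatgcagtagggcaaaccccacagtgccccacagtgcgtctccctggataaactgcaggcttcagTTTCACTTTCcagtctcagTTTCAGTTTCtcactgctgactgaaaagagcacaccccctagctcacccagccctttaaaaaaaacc
Ifit3, chr19:34583329-34583528: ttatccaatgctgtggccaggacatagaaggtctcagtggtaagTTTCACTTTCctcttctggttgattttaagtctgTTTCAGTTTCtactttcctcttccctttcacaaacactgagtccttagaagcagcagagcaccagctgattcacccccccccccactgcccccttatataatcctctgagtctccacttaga
Ifit3b, chr19:34607757-34607956: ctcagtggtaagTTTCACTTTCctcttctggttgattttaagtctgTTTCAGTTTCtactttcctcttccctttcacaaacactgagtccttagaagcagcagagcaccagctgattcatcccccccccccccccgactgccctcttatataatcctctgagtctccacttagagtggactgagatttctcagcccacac
Isg15, chr4:156200819-156201018: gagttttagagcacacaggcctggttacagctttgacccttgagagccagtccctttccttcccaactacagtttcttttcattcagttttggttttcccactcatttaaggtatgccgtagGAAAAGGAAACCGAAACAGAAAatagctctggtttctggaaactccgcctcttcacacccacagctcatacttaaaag

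In Ifit1 the matches began 104 and 85 bases before the start site and read on the opposite strand (TTTCACTTTC and TTTCAGTTTC). Ifit3 and Ifit3b carried the same 2 letter strings in the same order, at -156 and -122 and at -188 and -154. In Isg15, 3 overlapping matches on the strand of the gene began at -78, -72 and -66. Irf7 and Irf9 had a window without a match, which says only that these letters are not in that window. Usp18, Dhx58, Zbp1, Oas2, Parp9, Parp14, Mx1, Rtp4, Ifi27l2a and Ly6a had no window in the table.

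Transcripts of all 41 genes were counted in every library. Whether interferon signalling keeps up these levels was not tested. On the length-normalised FPKM scale, which allows genes to be compared, the mean over 18 libraries was highest for Ifi27l2a at 245.5 FPKM, of a family of small membrane proteins, then Bst2 (tetherin, which holds budding virus at the cell surface) at 113 FPKM, Sp100 (a nuclear body protein) at 80.6, Samd9l (a growth and translation inhibitor) at 79.6 and Lgals3bp (a secreted galectin ligand) at 59.1. The transcription factors Irf7 and Irf9 lay at 31.9 and 26.9 FPKM. At the low end were Oasl2 at 2.89, Ifitm3 (which blocks viral fusion) at 2.81, Rsad2 (viperin) at 1.65 and Ifi44 at 0.322 FPKM. Of transcript stretches of 50 bases, 57.6% of those of Oas1a are shared with another gene, chiefly Oas1g, 51.2% of those of Ifit3 with Ifit3b, and 45.0% of those of Ifit3b with Ifit3 and others, so the division of reads within these copies is uncertain. For Ly6a the share is 19.0%, for Rtp4 11.6% and for Ifit1 7.13%.

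The comparison of HFD with ND addressed continued high fat feeding. Of the 41 interferon genes, 4 fell in HFD (Rtp4, Irf9, Irf7 and Ifit1) and 0 rose, by the edgeR quasi-likelihood test at an adjusted p under 0.05. Over all genes tested, 0.957% were called lower and 0.665% higher. Of the 41 genes, 37 had a fitted fold change below 0 (47.6% of all genes tested did), and the median was -0.18 on the log2 scale against 0.01 for all genes. At an unadjusted p under 0.05, 12 of 41 were lower, against 7.09% of all genes. In 0 of the 41 did every HFD library lie below every ND library, which 1.00% of all genes did.

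Rtp4, a receptor chaperone that also acts as an antiviral effector and lies on chromosome 16 (23520291 to 23614222, plus strand, GRCm38), had the smallest adjusted p. Its level was 52.7 CPM in the lowest, 61.1 in the median and 77.7 in the highest ND library, 39.3, 43.2 and 54.4 CPM in HFD, and 42.9, 50.6 and 54.5 CPM in SW. Only HFD replicate 5, at 54.4 CPM, reached above the lowest ND library, and all 6 HFD and all 6 SW libraries were below the ND mean of 62.7 ± 8.45 CPM (SD, n = 6). The log2 fold change was -0.50 ± 0.09 (SE; edgeR adjusted p = 0.00354) in HFD and -0.34 ± 0.08 (adjusted p = 0.170) in SW. Without ND replicate 6 the fold change in HFD was -0.43 (adjusted p = 0.00904), and Rtp4 was called in all 18 fits that left out 1 library.

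Irf9, the DNA-binding subunit of ISGF3 (chromosome 14, 55603571 to 55610030, plus strand), lay at 143, 154 and 160.5 CPM in the lowest, median and highest ND library, at 118, 126 and 146 CPM in HFD, and at 129.8, 139.7 and 144 CPM in SW. HFD replicate 5 was again the only HFD library within the ND range. The change was -0.25 ± 0.05 (adjusted p = 0.0168) in HFD and -0.14 ± 0.05 (adjusted p = 0.535) in SW. It too was called without each library in turn, with adjusted p at most 0.0425.

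Irf7, the factor that amplifies interferon production and is itself induced by interferon (chromosome 7, 141262706 to 141266481, minus strand), lay at 113, 129 and 158 CPM in ND, 97.2, 105 and 118 CPM in HFD, and 92.0, 118 and 130.2 CPM in SW. The ranges overlapped through ND replicate 1 at 113 CPM and HFD replicate 5 at 118 CPM. The change was -0.32 ± 0.08 in HFD (adjusted p = 0.0381) and -0.20 ± 0.08 in SW (adjusted p = 0.558). This call was lost without any of ND replicates 2 to 6 or HFD replicates 2, 3, 4 and 6, with adjusted p up to 0.0855 and a fold change of -0.26 without ND replicate 6.

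Ifit1, which binds viral RNA that lacks the cap methylation of the host (chromosome 19, 34640871 to 34650009, plus strand; promoter above), had the largest fall among the 4. It lay at 32.8, 41.8 and 60.4 CPM in ND, 22.4, 25.8 and 35.9 CPM in HFD, and 24.6, 29.0 and 36.3 CPM in SW. HFD replicates 1 and 5, at 32.9 and 35.9 CPM, were within the ND range, in which ND replicates 3 and 4 were the lowest at 33.5 and 32.8 CPM. The change was -0.66 ± 0.15 in HFD (adjusted p = 0.0381) and -0.55 ± 0.15 in SW (adjusted p = 0.304). The call was lost without ND replicate 1, 2, 5 or 6 or HFD replicate 2, 3, 4 or 6, with adjusted p up to 0.0856 and a fold change of -0.54 without ND replicate 6.

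**Figure D1:**
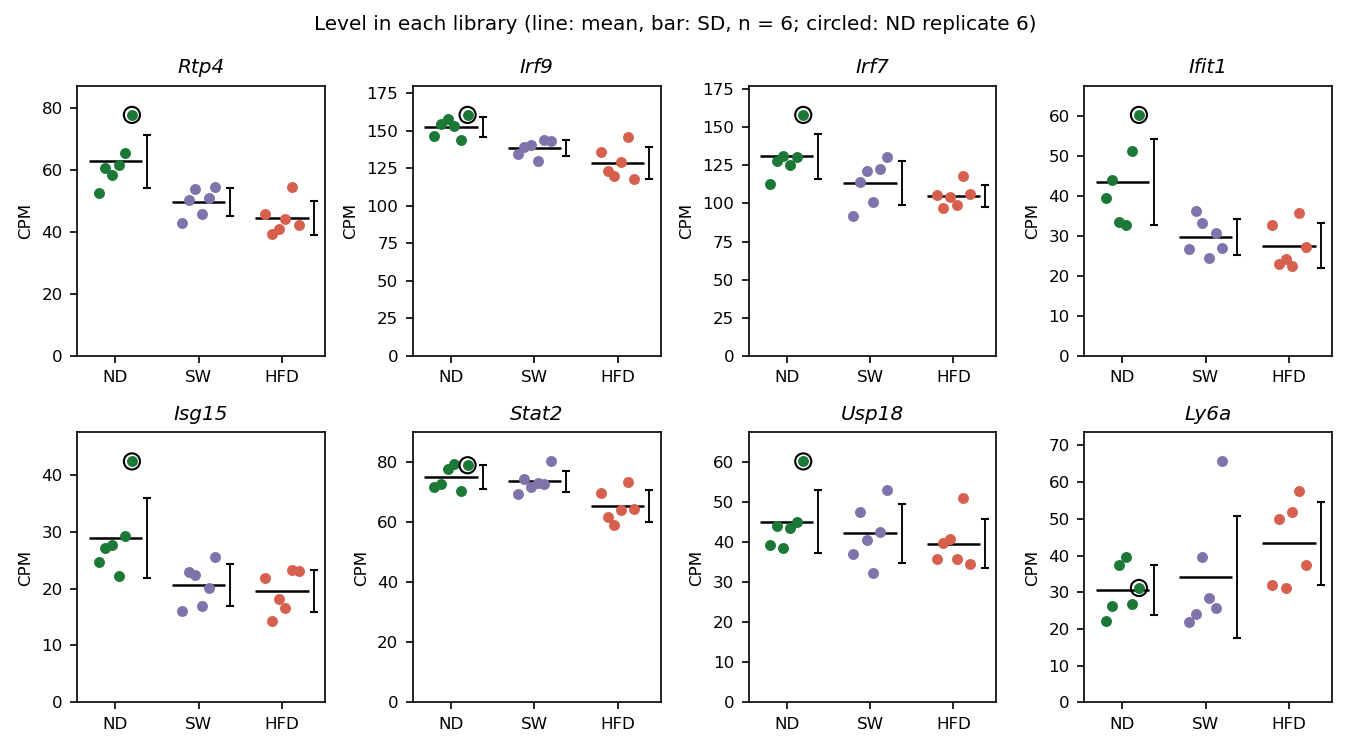
Level of 8 interferon response genes in each library (y axis, CPM from 0; x axis, diet), with points for the 6 libraries of a diet, a line for the mean, a bar for the SD and a circle around ND replicate 6. For Rtp4, HFD replicate 5 at 54.4 CPM is the only HFD library above the lowest ND library, and for Ly6a the highest point is an SW library at 65.6 CPM.

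Stat2 and Usp18, the other genes of signalling and feedback, did not pass the test. Stat2, the partner of IRF9 in ISGF3, lay at 70.2, 75.0 and 79.3 CPM in the lowest, median and highest ND library, at 58.9, 64.1 and 73.2 CPM in HFD, and at 69.3, 72.7 and 80.1 CPM in SW. Its fold change was -0.20 ± 0.06 in HFD (adjusted p = 0.0651) and -0.03 ± 0.06 in SW. Stat2 was called in HFD with a factor for replicates 1 and 2 against 3 to 6 (edgeR adjusted p = 0.0287) and with DESeq2 (adjusted p = 0.0222). SW was above HFD in Stat2 by 0.17 (unadjusted p = 0.00588, adjusted p = 0.256), and the SW range covered that of ND. Usp18, the protease that removes ISG15 and damps the receptor, lay at 38.5, 43.7 and 60.1 CPM in ND, 34.5, 37.8 and 50.9 in HFD and 32.4, 41.5 and 53.0 in SW, with a fold change of -0.19 ± 0.12 in HFD (adjusted p = 0.499). In Usp18 the 3 ranges overlapped over most of their length.

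The genes of nucleic acid sensing and its control were Ifih1, Ddx58, Dhx58, Zbp1, Eif2ak2, Adar and Trim25. Of these, 0 of 7 were called. Their fold changes in HFD ran from -0.21 (Dhx58) to 0.02 (Eif2ak2), with a median of -0.09. Zbp1, a sensor of Z-form nucleic acid, lay at 119, 128 and 159.9 CPM in ND, 114, 118 and 152 CPM in HFD and 98.3, 119 and 165 CPM in SW. The fold change of Zbp1 was -0.09 ± 0.11 in HFD, and the highest library of all was an SW library.

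The OAS family includes the enzymes that make the second messenger that activates RNase L. None of the 5 was called in HFD, and the median fold change was -0.31, from -0.46 (Oasl1, adjusted p = 0.0998) to -0.01 (Oas1a). Oasl2 lay at 15.6, 19.9 and 28.8 CPM in ND, 14.4, 15.9 and 21.5 CPM in HFD and 12.5, 15.2 and 19.5 CPM in SW. Its fold change was -0.31 ± 0.13 in HFD (adjusted p = 0.252) and -0.41 ± 0.13 in SW (adjusted p = 0.379), and all 6 SW libraries lay below the ND mean.

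The IFIT family, RNA-binding proteins encoded side by side on chromosome 19, had the lowest median of the groups at -0.36 in HFD, with Ifit1 the 1 of 4 that fell. Ifit3 lay at 36.1, 43.8 and 65.7 CPM in ND, 28.9, 35.3 and 47.4 CPM in HFD and 25.6, 34.6 and 46.0 CPM in SW, and its fold change was -0.31 ± 0.17 in HFD (adjusted p = 0.427). The ranges of Ifit3 overlapped in all 3 diets. Ifit2 was the closest to 0, at -0.07 ± 0.06.

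Isg15 and the ubiquitin and ADP-ribose enzymes were grouped with Sp100 (Isg15, Herc6, Parp9, Dtx3l, Parp14, Trim30a and Sp100). This group held 0 calls of 7 and had a median of -0.11 in HFD. Isg15, the ubiquitin-like protein that is attached to newly made proteins, lay at 22.2, 27.4 and 42.3 CPM in ND, 14.4, 20.0 and 23.2 CPM in HFD and 16.0, 21.3 and 25.5 CPM in SW. Every HFD and every SW library was below the ND mean of 28.9 ± 7.02 CPM (SD, n = 6), and HFD replicates 5 and 6 were above the lowest ND library. The fold change of Isg15 was -0.56 ± 0.15 in HFD (adjusted p = 0.0586) and -0.48 ± 0.15 in SW (adjusted p = 0.374). DESeq2 called Isg15 in HFD (adjusted p = 0.00912). Without ND replicate 6 the fold changes were -0.42 and -0.34.

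Of the 13 other antiviral effectors, Rtp4 fell and the median was -0.18 in HFD, from -0.50 (Rtp4) to 0.15 (Ifitm3). Mx1, a GTPase that traps viral nucleocapsids, lay at 29.0, 30.8 and 42.0 CPM in ND, 21.5, 25.0 and 33.0 CPM in HFD and 22.5, 26.1 and 33.4 CPM in SW, with a fold change of -0.32 ± 0.11 (adjusted p = 0.149) in HFD. Bst2 lay at 95.6, 103 and 133 CPM in ND, 82.8, 94.7 and 112 in HFD and 84.4, 95.2 and 103 in SW, a change of -0.17 ± 0.08 in HFD. In both genes ND replicate 6 held the highest value and the other ND libraries overlapped with HFD and SW. Ifi27l2a lay at 92.7, 115 and 162 CPM in ND, 85.5, 103 and 113 CPM in HFD and 85.1, 112 and 119 CPM in SW, a change of -0.23 ± 0.11 in HFD, and HFD and ND overlapped between 92.7 and 113 CPM.

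Ly6a (Sca-1), a surface protein used to mark activated and memory CD8 T cells as well as interferon exposure, differed from most members in sign. It lay at 22.1, 29.0 and 39.5 CPM in ND, 31.2, 43.7 and 57.7 CPM in HFD and 22.0, 27.1 and 65.6 CPM in SW. All 6 HFD libraries were above the ND mean of 30.5 ± 6.81 CPM, but the change of 0.51 ± 0.26 did not pass the test (adjusted p = 0.392), and the SW value of 0.17 turned to -0.12 without SW replicate 6, at 65.6 CPM. Ly6a was 1 of only 4 genes with a fold change above 0 in HFD, with Ifitm3 (0.15), Eif2ak2 (0.02) and Ifih1 (0.0029).

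**Figure D2:**
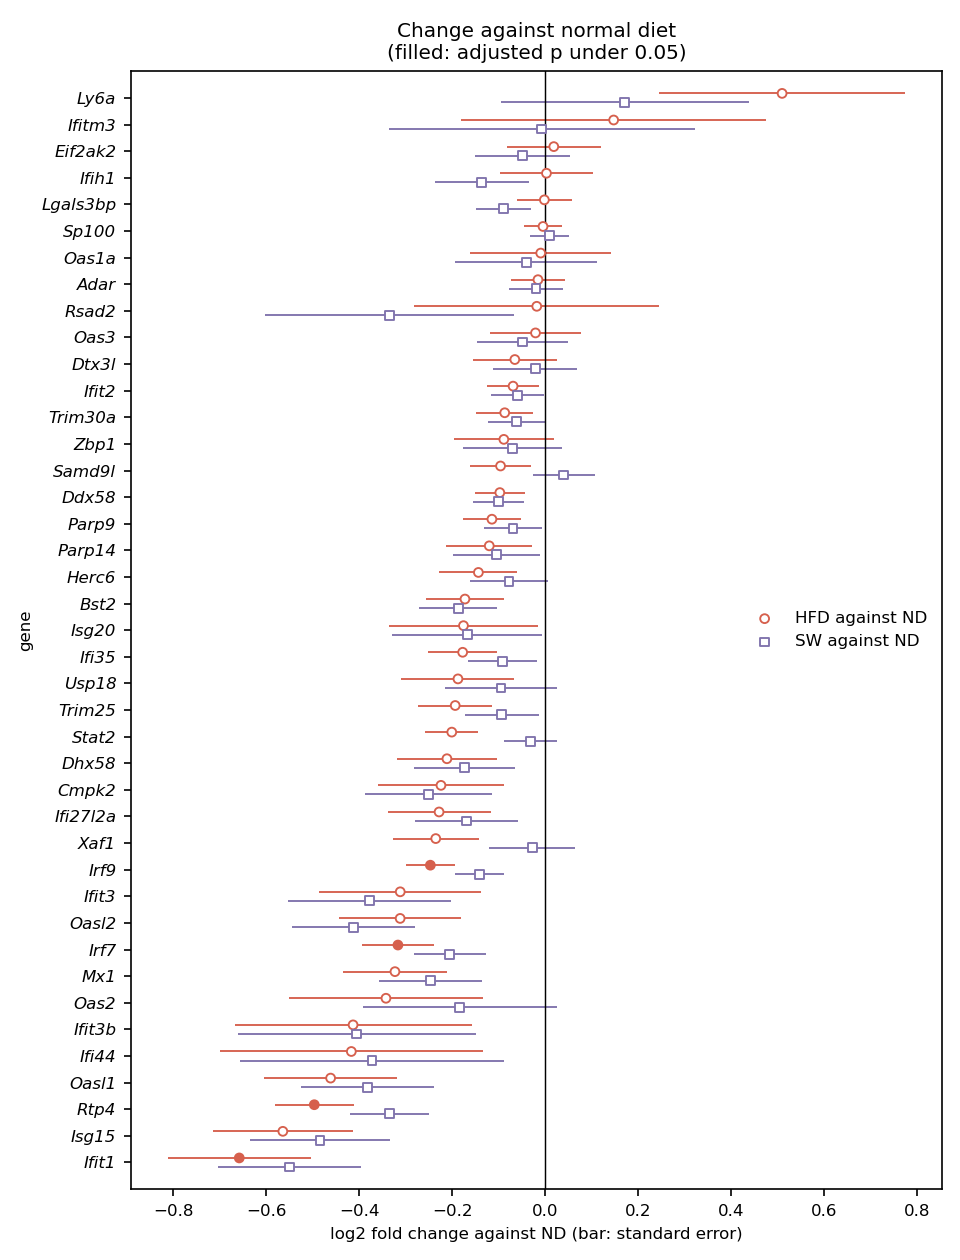
Log2 fold change against ND (x axis; bar, SE) of the 41 genes (y axis, ordered by the change in HFD), with circles for HFD and squares for SW and filled symbols at an adjusted p under 0.05. The 4 filled symbols are Irf9, Irf7, Rtp4 and Ifit1 in HFD, and 37 of 41 circles lie below 0.

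The comparison of SW with ND addressed 6 weeks of high fat diet followed by 6 weeks of normal diet. No library was taken at the switch, and the HFD group had 12 weeks of high fat diet. How much of an earlier change remained in SW can therefore not be read from these groups. None of the 41 genes passed the test in either direction, with 0.00730% of all genes called lower and 0.00730% higher. At an unadjusted p under 0.05, 10 of 41 were lower, against 3.37% of all genes, and DESeq2 called 1 (Ifit1). In 0 of 41 did all SW libraries lie below all ND libraries, against 0.416% of all genes. The fold change was below 0 in 38 of 41 (49.1% of all genes), with a median of -0.10 and a range from -0.55 (Ifit1) to 0.17 (Ly6a). This comparison shares its ND libraries with that of HFD, so the 2 sets of fold changes are not independent.

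SW was compared with HFD for the same genes without use of the ND libraries in the contrast. None of the 41 passed the test, where 0.124% of all genes were called in either direction. The median was 0.02, and 14 of 41 were below 0 (51.3% of all genes). At an unadjusted p under 0.05, 2 of 41 were higher in SW (Stat2 and Xaf1) and 0 lower, against 5.43% and 5.64% of all genes, and DESeq2 called 0.

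Within replicates 3 to 6 the median fold change was -0.19 in HFD and -0.14 in SW, and Rtp4 (adjusted p = 0.00249), Irf7 (0.0229) and Irf9 (0.0234) were called in HFD, while Ifit1 was not (-0.71, adjusted p = 0.176). Without HFD replicate 4 the median was -0.16 in HFD and Rtp4 and Irf9 were called. Without ND replicate 6 the median was -0.10 in HFD, with 32 of 41 below 0 and Rtp4 and Irf9 called, and -0.07 in SW, with 30 of 41 below 0.

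The ND library with the highest level was replicate 6. It lay above the mean of the other 5 ND libraries in 41 of 41 genes and was the highest ND library in 30 of 41 (73.2%), against 16.8% of all genes tested. It was the highest of all 18 libraries in 25 of 41 (61.0%), against 3.92%. The median excess over the other 5 was 0.35 on the log2 scale, against 0.0016 for all genes, and 8 of the 41 were at least 1.5-fold higher, as were 3.64% of all genes. ND replicate 6 was singled out for its level of these same genes, so an excess in them was built into the choice. These counts and shares are a description and no test.

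The excess in ND replicate 6 was largest in the OAS and IFIT families, with medians of 0.67 and 0.63 on the log2 scale. Ifit3b stood at 12.7 CPM against 6.14 ± 0.455 in the other 5 (SD, n = 5; 2.06-fold) and Oas2 at 57.9 against 29.4 ± 2.68 CPM (1.97-fold). Isg15 stood at 42.3 against 26.2 ± 2.73 CPM (1.62-fold). In these 3 genes the library lay above every other ND library.

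Signalling genes had a smaller excess, with a median of 0.21. Irf7 was 1.26-fold higher in ND replicate 6, at 158 against 125 ± 7.51 CPM, and Usp18 was 1.43-fold higher, at 60.1 against 42.0 ± 2.93 CPM. For Irf9 and Stat2 the ratio was 1.06, and for Dtx3l, Parp14, Trim25, Lgals3bp and Ly6a it was at most 1.05, within the range of the other 5.

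Markers of other cells in ND replicate 6 differed in direction. Those of B cells summed to 548 CPM there (11th of 18 from the highest), above the 489 to 536 CPM of the other 5 ND libraries, and those of natural killer cells to 128 CPM (5th), within the 109.9 to 130.2 CPM of the other 5. The summed markers of monocytes, macrophages and neutrophils were 76.0 CPM there, the 16th of 18 libraries from the highest, and 2 of the 12 were at 0. Mpeg1 made up most of this sum, at 62.1 CPM. Single markers of the list differed in direction: S100a8 (2.50 CPM) and S100a9 (3.23 CPM) were at their highest ND value there, and Csf1r (0.366 CPM) at its lowest. Those of conventional dendritic cells were 61.5 CPM (16th) and those of plasmacytoid dendritic cells, a main source of interferon, 185 CPM (8th), within the 177 to 198 CPM of the other ND libraries. Most of this last sum was Ccr9 at 124 CPM and Pacsin1 at 51.9 CPM, with Siglech at 1.28 CPM, so it follows Ccr9 and Pacsin1 above all. Erythroid markers were at 14.8 CPM (17th) and CD8 markers at 5103 CPM (2nd). The part of these cells in the level of ND replicate 6 was not tested.

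**Figure D3:**
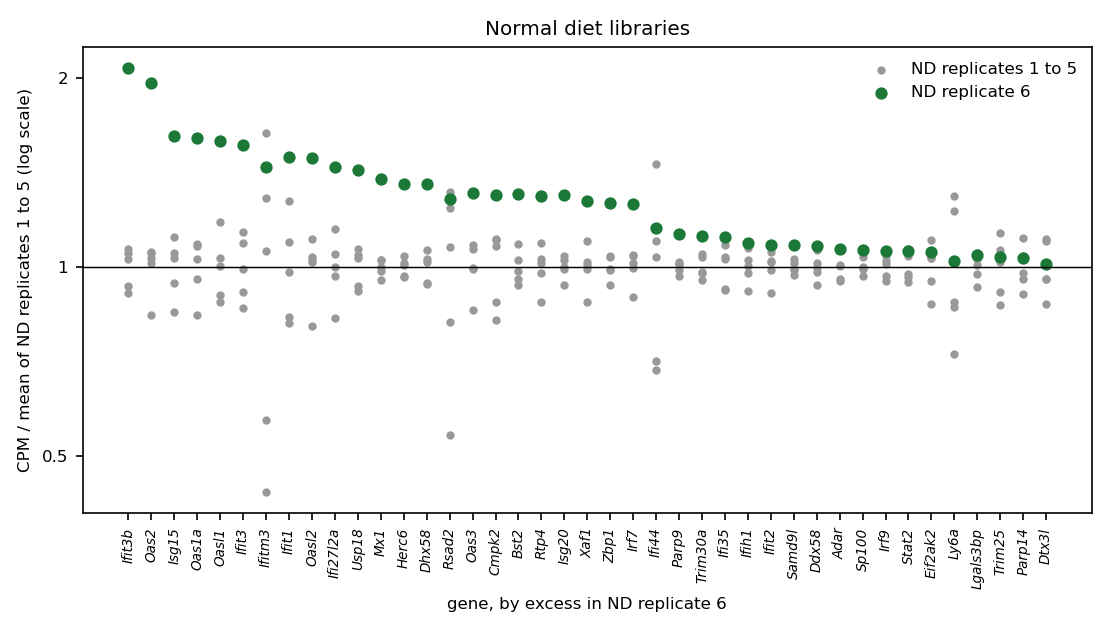
Ratio of each ND library to the mean of ND replicates 1 to 5 (y axis, log scale) for the 41 genes (x axis, ordered by the excess of replicate 6), with green points for replicate 6 and grey points for the other 5. Replicate 6 lies above 1 in all 41 genes, from 1.02 for Dtx3l to 2.06 for Ifit3b.

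A summary of each library was the median over the 41 genes of its log2 level minus the ND mean. ND replicate 6 was at 0.29 and the other ND libraries between -0.063 and 0.0030. In SW the values ran from -0.35 (replicate 1) and -0.27 (replicate 4) to 0.0054 (replicate 6). In HFD, replicate 5 was at 0.07 and the other 5 between -0.28 and -0.15. HFD replicate 5 was the highest HFD library in 28 of 41 genes (68.3%; 13.8% of all genes) and SW replicate 6 the highest SW library in 17 (41.5%; 14.6%), while SW replicates 1 and 4 were the lowest in 17 (41.5%; 21.3%) and 18 (43.9%; 19.6%).

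**Figure D4:**
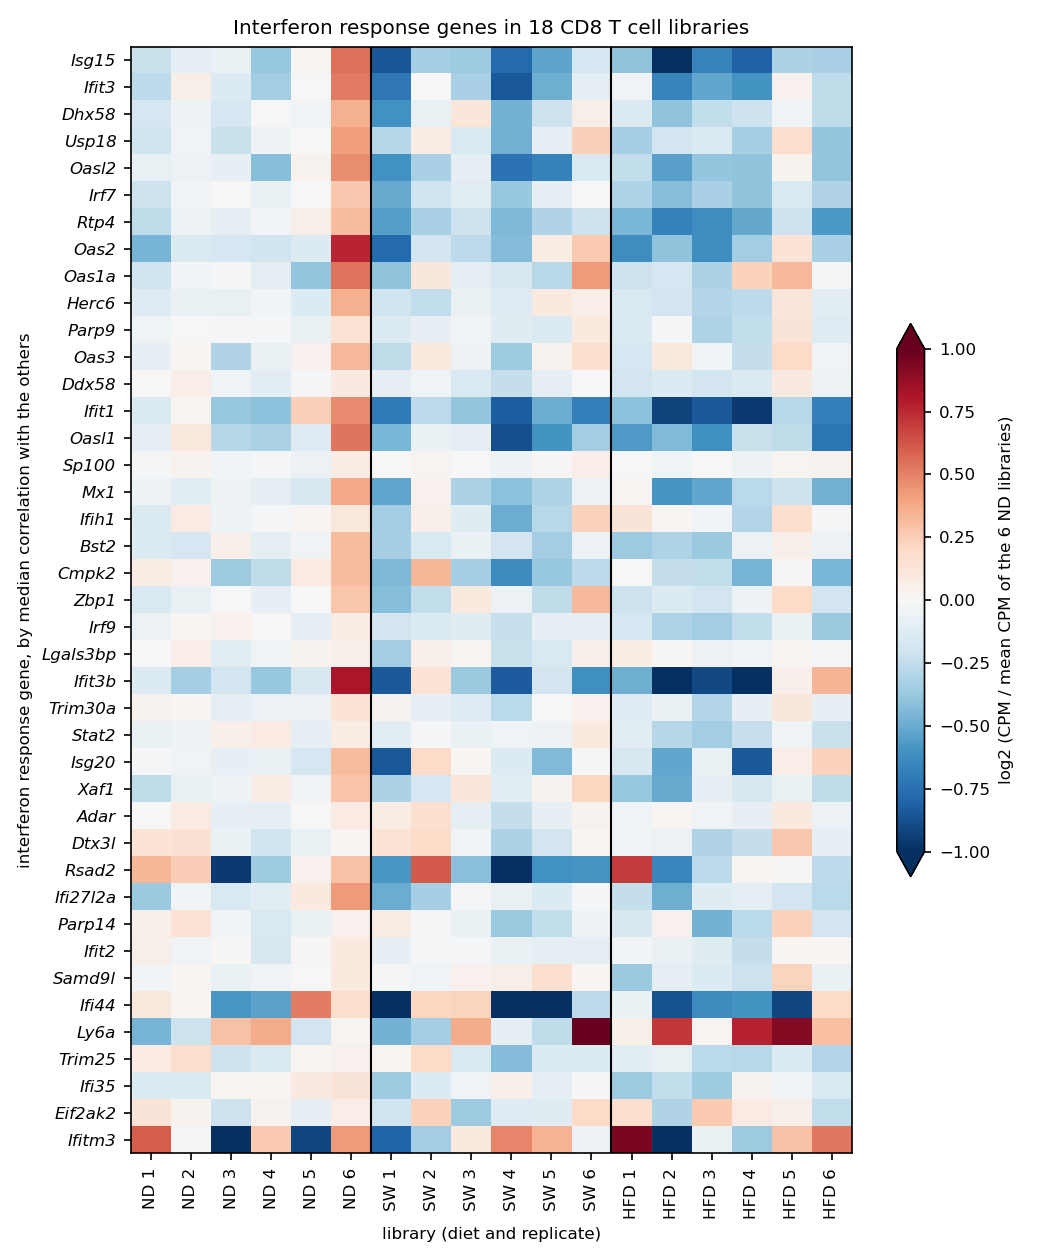
Log2 ratio of CPM to the ND mean (colour, from -1 in blue to 1 in red) for the 41 genes (y axis, ordered by median correlation with the others) in the 18 libraries (x axis, by diet). The column of ND replicate 6 is above 0 in all 41 genes, SW replicates 1 and 4 are the bluest SW columns, and HFD replicate 5 is the only HFD column with a median above 0, at 0.07.

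The genes varied together from library to library within a diet. With the diet means taken off, the median Pearson r of log2 CPM over the 820 pairs was 0.45 (n = 18 libraries, which share depth and handling), from -0.47 to 0.93, and 762 pairs were above 0. The median over all pairs of genes tested was -0.00098. An r above 0.5 was found in 43.4% of the 820 pairs and in 5.49% of all pairs. Without ND replicate 6 the median was 0.38, and within replicates 3 to 6 it was 0.59.

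Within single diets the median r was 0.57 over the 6 ND libraries, 0.50 over the 6 SW libraries and 0.43 over the 6 HFD libraries. Over ND replicates 1 to 5 alone it was 0.099, so the value within ND rested on replicate 6. The tightest pairs were Ifit3 with Isg15 at 0.93, Dtx3l with Parp14 at 0.92, Usp18 with Oas3 at 0.91 and Irf7 with Rtp4 and with Oas2 at 0.89 each. DTX3L is a ubiquitin ligase that works with PARP9, and its gene lies beside Parp9 and near Parp14 on chromosome 16.

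The members most tied to the rest, by their median r with the other 40, were Isg15 and Ifit3 (0.61 each), followed by Dhx58, Usp18, Oasl2 and Irf7 (0.60 each). The least tied were Ifitm3 (0.18), Eif2ak2 and Ifi35 (0.22 each), Trim25 (0.25) and Ly6a (0.26). Ifitm3 had few reads, between 9 and 50 counts per library. Against the mean of the other members, 32 of 41 had an r above 0.5, as did 1.35% of the other genes tested.

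**Figure D5:**
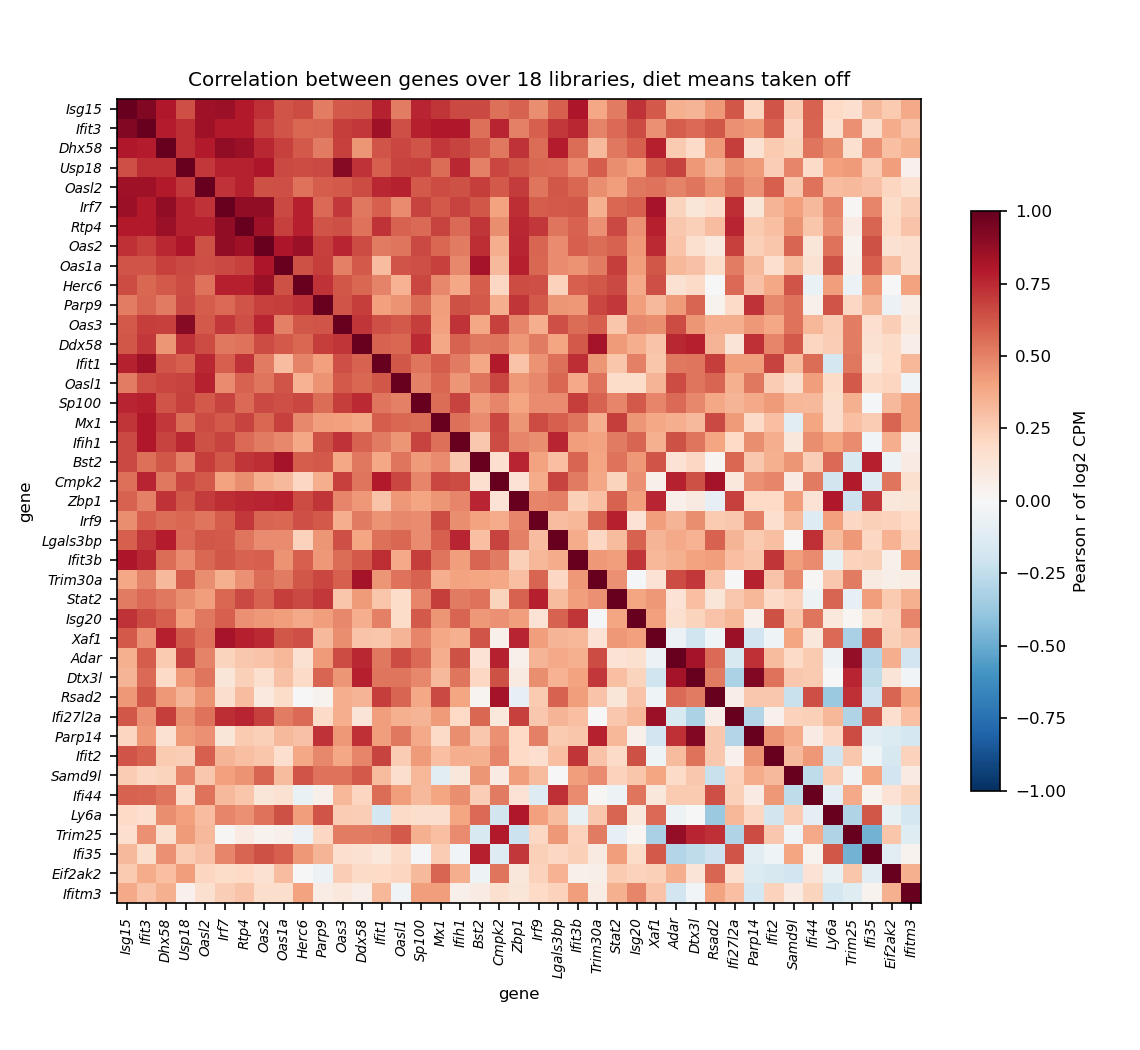
Pearson r of log2 CPM between every pair of the 41 genes over 18 libraries with diet means taken off (colour, from -1 in blue to 1 in red; genes in the same order on both axes). Pairs among the first genes in the order are mostly dark red, and the blue squares lie among Trim25, Ifi35, Ly6a, Ifitm3 and their neighbours, down to -0.47 for Trim25 with Ifi35.

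Irf7 was then set against each of the other 40 members over the 18 libraries with diet means taken off, with a two-sided permutation test within diets (100000 permutations) and Benjamini-Hochberg adjustment over the 40. All 40 values of r were above 0, and 26 passed by Pearson's r and 19 by Spearman's rho. For Rtp4, r was 0.89 and rho 0.85 (permutation p = 1e-05, the smallest the permutations can give, adjusted p = 0.0004 for r, and p = 0.00013, adjusted p = 0.0026 for rho). For Isg15, r was 0.85 (permutation p = 0.00011, adjusted p = 0.00147) and rho 0.91 (p = 4e-05, adjusted p = 0.0016). Trim25 was the least alike over all 18 libraries, with r at 0.015 and rho at -0.057, but its r was 0.83 within replicates 3 to 6. Other members moved as well, in both directions. In the same order, r was 0.22 and 0.93 for Adar, 0.49 and 0.034 for Ifi35, and the median over the 40 was 0.60 and 0.73. In the principal components given above, replicates 3 to 6 lay apart from the other replicates in every diet. The permutations did not keep them apart, so the p-values and the 26 calls do not allow for that split.

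The number of these calls depended on which libraries entered. SW replicate 1 and ND replicate 6 were farthest from the median of Irf7, and without them 39 of 40 values stayed above 0 but 4 passed by r. Leaving out the libraries farthest from the median narrows the range of Irf7, which by itself can lower r. Without ND replicate 6 alone 9 passed. Within replicates 3 to 6, which hold ND replicate 6 and not SW replicate 1, 25 passed. For Rtp4, r was 0.82 without the pair (permutation test, adjusted p = 0.0192) and 0.85 without ND replicate 6 (adjusted p = 0.0052).

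The 10 genes outside the list whose level was most like the mean of the 41, by Pearson r over 18 libraries with diet means taken off, were Ifi206 (0.78), Crem (0.77), H2-T24 (0.76), Chrnb1 (0.74), Mx2, Parp12 and Taf9b (0.72 each), Akr1c13 (0.71), AC133525.1 (0.70) and Pnldc1 (0.68). Ifi206, Mx2 and Parp12, 3 of the 10, were in the list of other interferon pathway genes. AC133525.1 and Pnldc1 had few reads, with an ND mean of 0.82 and 0.91 CPM. Without ND replicate 6, 4 of the 10 were still among the 10 most alike, while Ifi206 ranked 16th and Taf9b 89th.

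The rest of the pathway was read from a list of 130 further genes, of which 104 passed the filter. In HFD 2 of 104 fell and 0 rose, against 0.957% and 0.665% of all genes, and 69 of 104 (66.3%) had a fold change below 0, against 47.6%. In Irf1, a factor induced by both interferon types, every HFD library (183 to 232 CPM) lay below every ND library (253 to 287 CPM). It fell from 271 ± 12.9 to 210.2 ± 17.5 CPM (SD, n = 6), a log2 fold change of -0.37 ± 0.07 (adjusted p = 0.00561), with SW at 234 ± 27.1 CPM (adjusted p = 0.371). Slfn8, of the Schlafen family, fell as well, from 159 to 188 CPM in ND to 125 to 161 CPM in HFD (-0.25 ± 0.06, adjusted p = 0.0427). In SW 0 of 104 were called by edgeR and 56 (53.8%) had a fold change below 0, against 49.1% of all genes. At an unadjusted p under 0.05, 4 were lower and 1 higher in SW.

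Genes upstream in the pathway were not called. The receptor gene Ifnar1 lay at 172 ± 10.3 CPM in ND and 159 ± 5.18 in HFD (-0.11 ± 0.05, adjusted p = 0.239), and Ifnar2 at 72.5 ± 1.77 and 72.2 ± 5.72 CPM. Jak1 was at 1044 ± 49.5 CPM in ND and 1161 ± 62.5 in HFD (0.15 ± 0.05, adjusted p = 0.124), and Tyk2 at 132 ± 4.36 and 137 ± 6.21. For Ifnar2 the HFD range covered that of ND.

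Interferon transcripts themselves were near or under detection. Of 20 ligand genes, 15 had 0 counts in every library, which allows a level of up to 0.183 to 0.251 CPM (3 counts per library, counting error only), and 4 had counts too low to be tested. Ifng, the type II interferon, was the only ligand tested, at 3.42 ± 1.16 CPM in ND, 3.47 ± 1.83 in HFD and 1.70 ± 0.715 in SW, where all 6 libraries were below the ND mean (adjusted p = 0.479). The GTPases of the GBP and IRG families, which respond mainly to Ifng, had 0 calls of 18 in HFD, with 15 below 0 (83.3%, against 47.6% of all genes) and a median of -0.13. In bulk RNA, fewer cells that carry a transcript and less of it per cell cannot be told apart.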

How the data were processed

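Per the labels' protocols, poly-T beads served for the selection of messenger RNA and random hexamers as primers; whether strand was kept is not stated, so reads of antisense genes cannot be told apart. The submitters' processing notes name fastp and the builds GRCm38 and mm10; an aligner, a counter or an annotation is not given in the sources used here. Raw counts per gene were deposited by the authors for each library, and so were FPKM values, which served only to compare levels between genes.

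Of 56748 gene IDs, 52073 matched GENCODE M21. Counts were tested with edgeR 4.0.16 (R 4.3.3) by the quasi-likelihood F test with TMM factors, filterByExpr and a robust fit, over all 18 libraries with diet as the only factor. P-values were adjusted by Benjamini-Hochberg over the 13690 genes tested, and adjusted p-values come from it where no other test stands beside them; n is 6 libraries per diet. Fold changes are log2, with their standard error (SE). Correlations used log2 CPM with a prior count of 2. The edgeR test and the median pairwise correlation were also run on simulated data. Depth was 11947339 to 16398340 counts per library, and intervals of counts cover counting error only.

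Values per library are given for members called in any comparison and for Irf7, Irf9, Stat2, Usp18, Isg15, Ifit1, Ifit3, Rtp4, Zbp1, Oasl2, Bst2, Ifi27l2a, Mx1 and Ly6a; of other pathway genes, called ones and Ifnar1, Ifnar2, Jak1, Tyk2 and Ifng are named (1 further gene is not reported here), and the 10 genes most like the member mean. The members, the lists and these rules were chosen with earlier results of these data known. Alternatives were RLE factors, no filter, DESeq2 1.42.0, the replicate number as a block, replicates 1 and 2 against 3 to 6 as a factor, replicates 3 to 6 only, only the diets compared, and each library left out; for correlations also no centring, Spearman's rho and a prior count of 0.5. Promoter windows are from RefSeq (GRCm38.p6); the bases of the Ifit1 stretch inside the GENCODE gene were left off.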

Additional observations from a re-analysis of the deposited data

Results flagged for a closer look

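ND replicate 6 stood apart from the other 5 ND libraries by Dixon's criterion in Usp18 (60.1 CPM), Zbp1 (159.9 CPM) and Mx1 (42.0 CPM), 3 of the 14 members whose values were given in full. Among the other 27 members it stood apart in 6 (Dhx58, Oas2, Ifit3b, Herc6, Parp9 and Isg20). In SW and HFD 0 of the 41 members had such a library. For a single gene taken alone, chance gives about 1 such group in 20. That rate is no yardstick for these counts, because the members vary together and ND replicate 6 was singled out for its level of these same genes. The counts are a description.

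The median deviation of the 41 genes from the ND mean, on the log2 scale, was 0.29 in ND replicate 6 and 0.071 in HFD replicate 5, and both stood apart within their diets by the same criterion.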

How the results depend on the processing

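The median fold changes of the 41 genes kept their sign and stayed within the spread between libraries in all 3 comparisons under every alternative run. That spread was the SD over libraries of the library medians, the larger of the diets compared. It is a wide bound for medians this near 0, and the median in HFD moved toward 0 without ND replicate 6, as given above. The count of genes called lower in HFD was 9 with the replicate number as a block (adding Isg15, Stat2, Ifi35, Trim25 and Xaf1), 7 with a factor for replicates 1 and 2 against 3 to 6 (adding Stat2, Trim25 and Xaf1), 6 with DESeq2 (adding Isg15 and Stat2) and 3 within replicates 3 to 6; leaving out 1 library gave 2 to 6, with 2 (Irf9 and Rtp4) without ND replicate 2, 5 or 6 or HFD replicate 2, 3, 4 or 6, and 6 without HFD replicate 1. The count in SW was 1 without the filter (Rtp4), 1 with DESeq2 (Ifit1) and 2 with the block (Isg15 and Rtp4), against 0; no library left out changed it. The causes were not tested. The median pairwise correlation was 0.59 within replicates 3 to 6. Of the 26 correlations with Irf7 that passed, 4 passed without SW replicate 1 and ND replicate 6, and 9 without ND replicate 6 alone; fewer libraries entered. Some fold changes in SW changed sign. With each library left out, that of Usp18 ran from -0.17 (without SW replicate 6) to 0.012 (without ND replicate 6), and that of Ly6a from -0.12 (without SW replicate 6) to 0.27 (without SW replicate 1).

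The labels do not say that a replicate number marks a shared source. Over 18 pairs of libraries with the same number in 2 diets, the correlation of their deviations ran from -0.031 to 0.22, with 7 over 0.1. All 6 pairs of replicates 1 and 2 were among these, at 0.119 to 0.219. In 14 of 36 cases a library correlated best with its own number, a hint from the data and not from the design. As not every pair was over 0.1, the numbers were not taken to pair the libraries, and the block counts of 9 and 2, with adjusted p = 0.00233 for Isg15 and 0.0327 for Stat2 in HFD (edgeR), stand as alternatives. Ifi44 (13 to 42 counts per library) and Ifitm3 (9 to 50) were the most limited by depth.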
